A study of Homo sapiens with 3 samples.

Results

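Potassium channel genes were taken as all protein-coding genes whose symbol is KCN followed by letters and a closing number, which gave 95 genes among 19951 protein-coding and 58735 annotated genes. The choice used symbols and no measured value, and it leaves out antisense and intronic transcripts named after channels. Expression was measured by RNA sequencing in established human prostate cancer lines, of which each of the 3 gave a single library. The series design assigns LNCAP, an androgen-responsive line of lymph node origin, to the androgen-dependent class. It assigns PC3, of bone metastasis origin, and DU145, of brain metastasis origin, to the castration-resistant class, and both grow without androgen. The labels give no treatment or genetic change for any line, and all were cultured with 10% fetal bovine serum. The media are named without saying which line received which, so medium and line cannot be told apart. Each class therefore rests on 1 or 2 lines, and no line has a replicate library, so each ratio compares 2 libraries without a replicate check.

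Potassium channels let potassium ions cross the cell membrane along their gradient and so set the resting potential, shape electrical signals and control cell volume. Voltage-gated pores open on depolarisation, calcium-activated pores open when intracellular calcium rises, inward rectifiers and two-pore channels hold the resting potential, and auxiliary subunits tune the pores they bind. In prostate epithelium and its tumours, channels of these families have been studied for their part in secretion, volume control, proliferation and migration.

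The libraries held between 15319045 and 15878546 counts, and levels are given as CPM, counts scaled by library total and TMM factor. A count of 0 allows up to 3 counts, which is 0.192 CPM in LNCAP, 0.196 in PC3 and 0.191 in DU145. All 5 epithelial markers examined were at 1 CPM or more in each line. Of 5 prostate luminal markers, 5 reached 1 CPM in LNCAP, 2 in PC3 and none in DU145, where all 5 had no counts. Markers of other cell types summed to lower levels than the epithelial ones. Leukocyte markers summed to 0.448 to 1.60 CPM over 5 genes, endothelial markers to 1.21 to 39.1 CPM over 4, fibroblast markers to 9.64 to 47.9 CPM over 5, neuronal markers to 3.07 to 11.4 CPM over 5 and muscle markers to 1.02 to 4.34 CPM over 4. CD3E, LUM, STMN2 and DES, which mark T cells, fibroblasts, neurons and muscle, had no counts in any line, but other members of these lists were read. Genes at 1 CPM or more are given in the order LNCAP, PC3, DU145. They numbered 2, 1 and 3 of 5 neuronal markers and 2, 2 and 1 of 5 fibroblast markers. Muscle markers had 0, 1 and 2 of 4, endothelial markers 1, 2 and 0 of 4, and leukocyte markers 0, 0 and 1 of 5. The part of any of these markers in the channel results was not tested.

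The promoters of KCNN2, KCNN4, KCNK5 and KCNK1 stand for the patterns described below and are shown as the 250 bases before the RefSeq start site on GRCh38.p14, with CpG dinucleotides in capitals. KCNN2 (chr5:114361820-114362069, plus strand) belongs to a gene read in LNCAP alone and lies inside its listed gene model, downstream of the 5′ end, and KCNN4 (chr19:43780974-43781223, minus strand) to its relative read mainly in PC3 and DU145. KCNK5 (chr6:39229476-39229725, minus strand) belongs to a gene with no counts in PC3, and KCNK1 (chr1:233613856-233614105, plus strand) to a gene read in all 3 lines. The KCNN4 window also lies inside its listed gene model. The KCNK1 window spans the 5′ end of its model, and the KCNK5 window lies upstream of its model.
KCNN2: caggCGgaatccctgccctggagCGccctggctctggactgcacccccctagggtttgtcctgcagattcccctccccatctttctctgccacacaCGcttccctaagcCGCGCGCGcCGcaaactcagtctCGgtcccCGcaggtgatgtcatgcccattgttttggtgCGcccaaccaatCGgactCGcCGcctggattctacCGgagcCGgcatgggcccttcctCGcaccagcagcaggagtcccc
KCNN4: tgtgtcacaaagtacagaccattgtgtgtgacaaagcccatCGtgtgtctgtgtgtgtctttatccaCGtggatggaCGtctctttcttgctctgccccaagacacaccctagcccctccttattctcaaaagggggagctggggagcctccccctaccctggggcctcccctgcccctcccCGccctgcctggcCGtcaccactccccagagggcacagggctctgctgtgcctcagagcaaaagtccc
KCNK5: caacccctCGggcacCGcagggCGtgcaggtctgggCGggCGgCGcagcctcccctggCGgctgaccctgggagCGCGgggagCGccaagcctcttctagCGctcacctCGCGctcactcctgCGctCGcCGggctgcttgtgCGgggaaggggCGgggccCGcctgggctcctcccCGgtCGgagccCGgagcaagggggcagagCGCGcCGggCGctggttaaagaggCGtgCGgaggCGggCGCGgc
KCNK1: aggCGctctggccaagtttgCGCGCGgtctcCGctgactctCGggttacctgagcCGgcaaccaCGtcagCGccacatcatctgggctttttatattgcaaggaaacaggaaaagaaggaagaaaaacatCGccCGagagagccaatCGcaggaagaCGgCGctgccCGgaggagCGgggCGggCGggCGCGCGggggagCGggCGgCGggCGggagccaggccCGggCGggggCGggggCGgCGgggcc
The KCNK5 and KCNK1 windows held 31 and 30 CpG dinucleotides, that of KCNN2 17 and that of KCNN4 5. Matches to the GC box GGGCGG on either strand numbered 2 in KCNK5, 6 in KCNK1, 1 in KCNN4 and 0 in KCNN2. None of the 4 windows held the AP-1 motif TGACTCA or the steroid receptor half-site AGAACA on either strand, and KCNK1 held 1 match to the TATA box TATAAA. No motif in this set contains another, and a match describes letters only. Among 14895 protein-coding promoters of this length, 57.1% held the GC box, 3.11% the AP-1 motif, 9.01% the half-site and 9.10% the TATA box. Among the 71 potassium channel genes with a promoter in the table, the shares were 57.7%, 2.82%, 5.63% and 9.86%.

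Of the 95 genes, 46 reached 1 CPM in at least 1 library, which is 48.4%, against 70.8% of all protein-coding genes. In bulk RNA, fewer cells with a transcript and less of it per cell cannot be told apart. By line, 32 genes reached 1 CPM in LNCAP (33.7%), 27 in PC3 (28.4%) and 33 in DU145 (34.7%), where 62.6%, 61.8% and 63.7% of protein-coding genes did. Another 31 genes had counts but stayed under 1 CPM, 27 of them with fewer than 10 counts in every library. No counts were read in any library for 18 genes. Among voltage-gated pores these were KCNB2 and the Shaker-related genes KCNA1, KCNA3, KCNA4, KCNA5, KCNA6 and KCNA10. Among inward rectifiers they were KCNJ15, KCNJ16 and KCNJ18. They also included the two-pore genes KCNK2, KCNK4, KCNK16, KCNK17 and KCNK18 and the auxiliary genes KCNIP1, KCNMB1 and KCNMB2. The 2 remaining Shaker-related genes were near this floor, with KCNA2 at 0.064 CPM in LNCAP and 0 elsewhere and KCNA7 at no more than 0.319 CPM.

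Of all 18025 genes at 1 CPM or more in some library, 12283 were so in all 3. Of the 46 channel genes above 1 CPM somewhere, 18 were so in all 3 libraries, 10 in a pair of libraries and 18 in a single one. Among those at this level in LNCAP alone were KCNC1, KCND3, KCNH6, KCNH8, KCNJ3, KCNN2 and KCNQ1. Among those in PC3 alone were KCNJ2, KCNJ8 and KCNJ12. DU145 alone had KCNF1, KCNH1, KCNK3, KCNN1, KCNQ3 and KCNQ5. Genes that pass this floor only where they are high had to differ between lines, so counts over the 46 describe these libraries and carry no further weight.

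**Figure D1:**
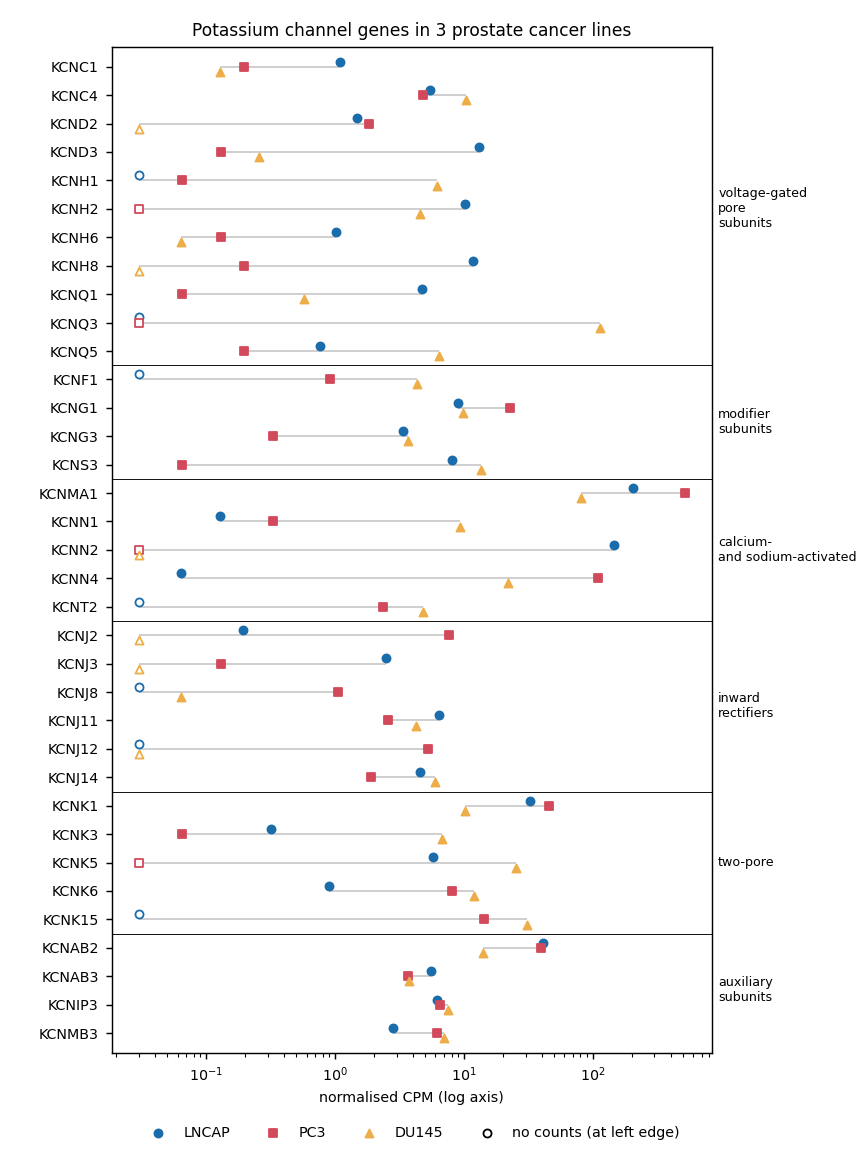
Normalised CPM on a log axis of 35 of the 39 potassium channel genes named by the reporting rule, 1 point per library, grouped by role; open points at the left edge mark libraries without counts. CPM is not divided by gene length, so points compare lines within a gene. KCNN2 lies at 145 CPM in LNCAP with no counts elsewhere, and KCNQ3 at 114 CPM in DU145 with no counts elsewhere.

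Levels of different genes were compared on the deposited FPKM scale, which divides counts by gene length. Summed over the 95 genes, FPKM was 70.3 in LNCAP, 91.7 in PC3 and 70.1 in DU145. KCNN2 led in LNCAP with 21.9 FPKM, 31.2% of the sum, followed by KCNK1 at 8.76 FPKM and KCNMA1 at 5.68 FPKM. KCNN4 led in PC3 with 32.1 FPKM, 35.0% of the sum, followed by KCNMA1 at 14.4 FPKM and KCNK1 at 12.4 FPKM. In DU145 the leading genes were KCNK15 at 11.8 FPKM (16.9%), KCNQ3 at 8.99 FPKM, KCNK5 at 6.75 FPKM and KCNN4 at 6.43 FPKM. The top 3 genes thus made up 51.7%, 64.2% and 39.3% of the summed FPKM in LNCAP, PC3 and DU145. A different gene led in each line, and KCNMA1 and KCNK1 were among the first 10 in each.

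**Figure D2:**
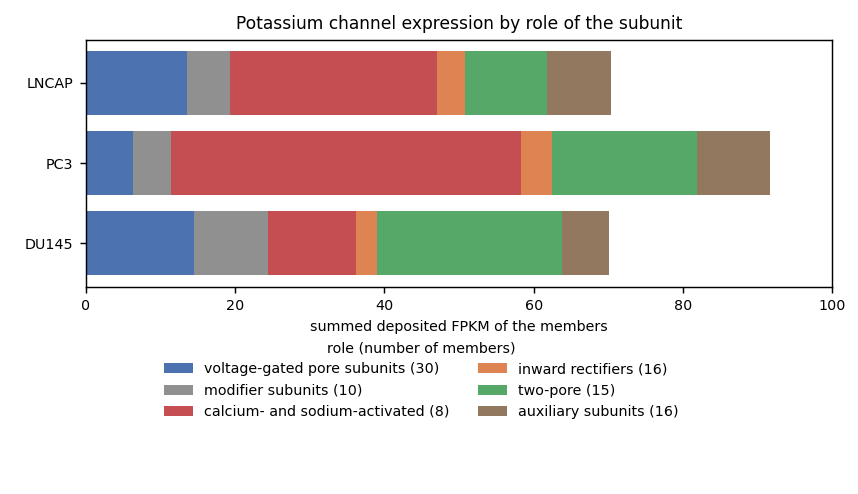
Summed deposited FPKM of the 95 potassium channel genes in each library, stacked by role of the subunit, with the number of genes per role in the key. Calcium- and sodium-activated channels hold 39.5% of the sum in LNCAP and 51.3% in PC3 but 16.7% in DU145, where two-pore channels hold 35.4%.

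Calls in pairs of lines went both ways. A gene was called when its ratio of scaled counts was 4-fold or more in either direction, with 0.5 counts added, and the 95% counting interval of the ratio left out 1. Of the channel genes, 22 of 46 were called in PC3 against LNCAP, 9 higher and 13 lower, where 26.4% of 18025 tested genes were called (13.0% higher, 13.4% lower). In DU145 against LNCAP 21 of 46 were called, 11 higher and 10 lower, beside 25.8% of all tested genes (13.7% higher, 12.1% lower). In PC3 against DU145 21 of 46 were called, 9 higher and 12 lower, beside 19.1% (8.54% higher, 10.6% lower). The first 2 comparisons share the LNCAP library. The shares of the channel genes were 47.8%, 45.7% and 45.7%. The 46 genes were weakly expressed, with a median highest level of 6.55 CPM against 26.7 CPM for all tested genes. Of the 46, 18 passed the floor in a single library. The part of expression level or of the floor in these shares was not tested. Their median log2 ratios were -0.03, 0.10 and -0.30, against -0.01, 0.00 and 0.00 over all tested genes, and each pair held calls in both directions.

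**Figure D3:**
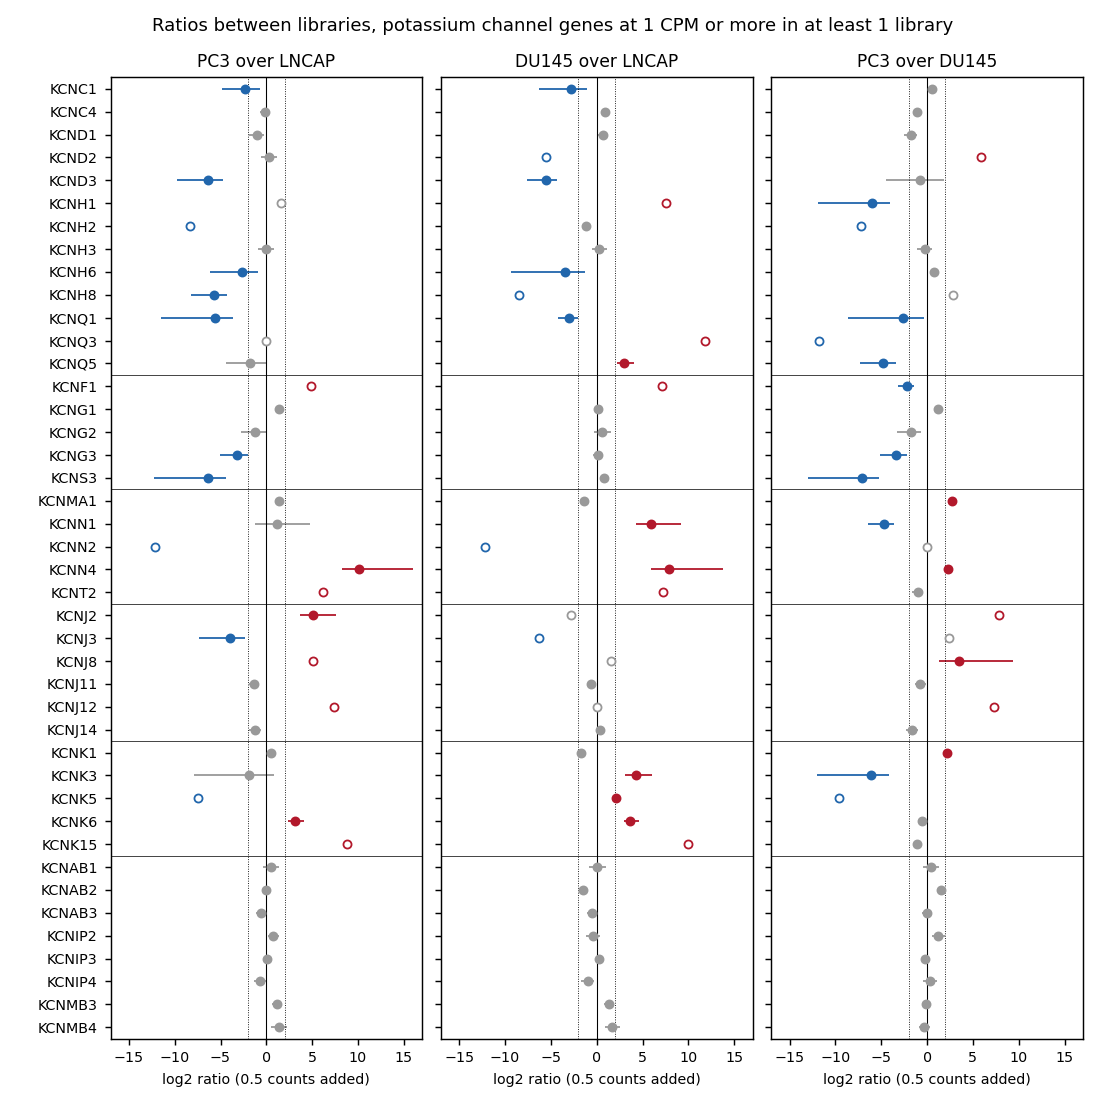
Log2 ratios between libraries, with 0.5 counts added, of 42 of the 46 potassium channel genes at or above 1 CPM somewhere, ordered by role with the 8 auxiliary genes at the bottom. Red and blue points were called at least 4-fold higher or lower, grey points were not called, lines are 95% counting intervals of the ratio without the added counts, open points had no counts in 1 or both libraries and carry no interval, nor do points with 3 counts or fewer in both, and dotted lines mark log2 ratios of -2 and 2.

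Calcium- and sodium-activated channels were represented by 8 genes, 5 of them at or above 1 CPM in some library. The leading gene of this group differed between lines. KCNN2 (ENSG00000080709, chromosome 5, 114055545 to 114496500), which encodes a small-conductance calcium-activated pore, had 2264 counts in LNCAP, or 145 CPM, and 0 in both PC3 and DU145. It was at least 738-fold lower in PC3 and at least 756-fold lower in DU145 than in LNCAP. KCNN4 (ENSG00000104783, chromosome 19, 43766533 to 43781261), which encodes the intermediate-conductance pore, stood at 0.064 CPM in LNCAP, from 1 count, at 110.1 CPM in PC3 and at 22.0 CPM in DU145. These 2 relatives were read in opposite lines. KCNN4 was 1721-fold higher in PC3 than in LNCAP (95% counting interval 309 to 68027), 343-fold higher in DU145 (61.2 to 13595), and 5.02-fold higher in PC3 than in DU145 (4.46 to 5.65).

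KCNN1, another small-conductance gene, was read mainly in DU145, at 9.32 CPM against 0.128 in LNCAP and 0.327 in PC3. It was 72.8-fold higher in DU145 than in LNCAP (19.8 to 607), from 2 LNCAP counts, and 28.5-fold lower in PC3 than in DU145 (11.9 to 89.0). KCNN3, the remaining small-conductance gene, stayed between 0.255 and 0.458 CPM in all 3 lines. On the FPKM scale the leading gene of this family was KCNN2 in LNCAP and KCNN4 in the other lines, and KCNN1 stood at 2.34 FPKM beside KCNN4 at 6.43 in DU145. All pores of this family bind calmodulin as their calcium sensor, and its 3 genes stood between 120.4 and 1073 CPM in every line.

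KCNMA1 (ENSG00000156113, chromosome 10, 76869601 to 77638369) encodes the large-conductance BK pore, which opens with both voltage and calcium. Its level was 206 CPM for LNCAP, 516 for PC3 and 80.8 for DU145. Its order across lines was PC3, then LNCAP, then DU145. PC3 was 2.51-fold higher than LNCAP (2.40 to 2.61) and 6.39-fold higher than DU145 (6.02 to 6.79), and DU145 was 2.55-fold lower than LNCAP (2.39 to 2.72). Only PC3 against DU145 passed the 4-fold call. KCNMA1-AS1, which overlaps 1.18% of the KCNMA1 exon bases from the other strand, had 50, 53 and 1 counts in the order LNCAP, PC3, DU145.

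The BK pore is tuned by beta subunits (KCNMB genes) and by leucine-rich gamma subunits, of which LRRC26 shifts opening to resting voltage. In the order LNCAP, PC3, DU145, KCNMB3 stood at 2.81, 6.22 and 7.02 CPM and KCNMB4 at 1.09, 2.81 and 3.51 CPM, and no pair passed the 4-fold call. Of the KCNMB3 exon bases, 47.5% lie in other gene models, among them PIK3CA on the other strand, so its level is uncertain. LRRC26 was at 30.1 CPM in LNCAP, 0.262 in PC3 and 0.0638 in DU145, which is 115-fold lower in PC3 (44.7 to 424) and 472-fold lower in DU145 from 1 count (84.3 to 18686). LRRC38, another gamma subunit gene, had 7.65 CPM in PC3 and no counts in LNCAP or DU145. LRRC52 had no counts in any line and LRRC55 had 0.128 CPM in LNCAP alone. The BK pore gene was thus read in all 3 lines, with LRRC26 above 1 CPM in LNCAP, LRRC38 in PC3 and none of these gamma subunit genes in DU145.

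**Figure D4:**
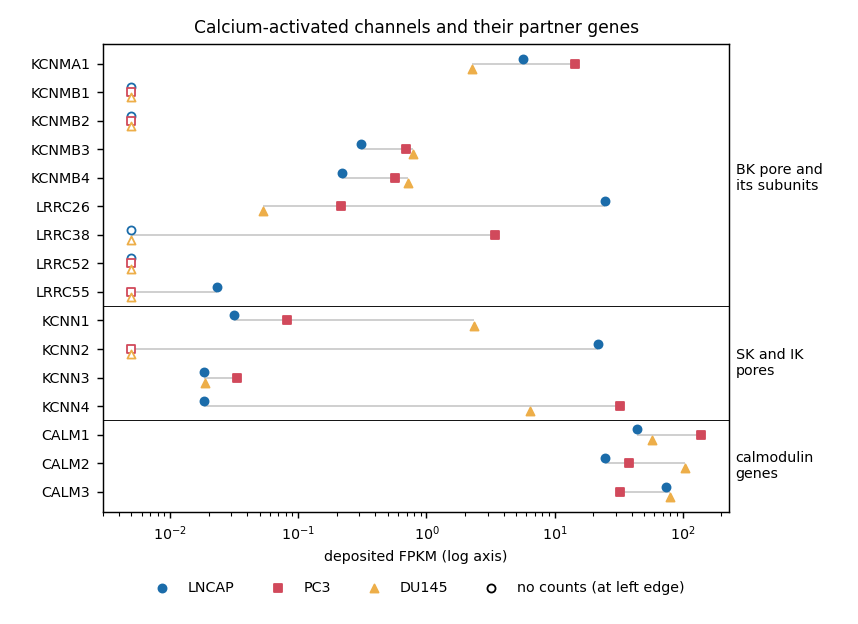
Deposited FPKM on a log axis of the calcium-activated pore genes, the beta (KCNMB) and gamma (LRRC) subunit genes of the BK pore, and the calmodulin genes, 1 point per library; open points at the left edge mark libraries without counts. LRRC26 is at 24.5 FPKM in LNCAP and at or under 0.215 FPKM in the other lines, and LRRC38 is read in PC3 alone.

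KCNT2, a sodium-activated pore gene, had 0 counts in LNCAP and reached 2.36 CPM in PC3 and 4.79 in DU145. Against LNCAP, PC3 was at least 12.3-fold and DU145 at least 24.9-fold higher. Its relative KCNT1 had 7 counts in LNCAP and none in the other lines, and KCNU1 did not exceed 0.589 CPM.

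Two-pore channels, many of which carry background potassium current, were represented by 15 genes, 5 of them at 1 CPM or more. No current was measured here. KCNK5 (ENSG00000164626, chromosome 6, 39188973 to 39229450), an acid-sensitive channel gene, stood at 5.76 CPM in LNCAP, 0 in PC3 and 25.4 CPM in DU145. It was at least 29.3-fold lower in PC3 than in LNCAP and 4.41-fold higher in DU145 (3.50 to 5.61), so the castration-resistant lines lay on opposite sides of LNCAP. PC3 was at least 129-fold lower than DU145. KCNK15 (ENSG00000124249, chromosome 20, 44745780 to 44752313) had 0 counts in LNCAP, 218 in PC3 (14.3 CPM) and 483 in DU145 (30.8 CPM). Against LNCAP, PC3 was at least 74.3-fold and DU145 at least 161-fold higher. Its exons share 21.7% of their bases with other gene models, RIMS4 and KCNK15-AS1, both on the other strand. KCNK15-AS1 had 3, 11 and 19 counts in LNCAP, PC3 and DU145.

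KCNK6 was also lowest in LNCAP, with 0.896 CPM against 8.05 in PC3 and 11.9 in DU145, which is 8.99-fold (5.16 to 16.9) and 13.3-fold higher (7.70 to 24.7). KCNK3, an acid-sensitive channel gene, was read in DU145 at 6.70 CPM and at 0.320 and 0.0654 CPM in LNCAP and PC3. DU145 was 21.0-fold higher than LNCAP (8.70 to 65.9) and PC3 102-fold lower than DU145, from 1 PC3 count (18.0 to 4084). KCNK1 stood at 32.4 CPM in LNCAP, 45.5 in PC3 and 10.1 in DU145. It passed the 4-fold call only between PC3 and DU145, at 4.48-fold (3.77 to 5.36). Of the 5 two-pore genes, 4 were thus called higher in DU145 than in LNCAP and none lower, and against LNCAP 2 were higher and 1 lower in PC3. Over all tested genes 13.7% were called higher and 12.1% lower in DU145 against LNCAP. In PC3 against LNCAP 13.0% were called higher and 13.4% lower. KCNK3 reached 1 CPM in DU145 alone, and KCNK15 and KCNK6 stayed under it in LNCAP. Genes that pass the floor only where they are high had to differ, so these counts carry no further weight.

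Voltage-gated pore subunits formed the largest group, with 30 genes, 17 of them at 1 CPM or more. Within the KCNQ family, whose pores carry slow currents that restrain excitability or repolarise epithelia, LNCAP and DU145 had different genes at their highest. KCNQ3 (ENSG00000184156, chromosome 8, 132120858 to 132481019) had 1784 counts in DU145, or 114 CPM, and none in LNCAP or PC3. KCNQ5 was also highest in DU145, at 6.38 CPM against 0.768 in LNCAP and 0.196 in PC3, which is 8.31-fold higher than in LNCAP (4.55 to 16.6). In the other direction, KCNQ1 was at 4.73 CPM in LNCAP, against 0.0654 in PC3 and 0.574 in DU145. It was called lower in both other lines, 72.4-fold in PC3 from 1 count (12.6 to 2896) and 8.24-fold in DU145 (4.11 to 18.7). KCNQ1OT1, a transcript antisense to KCNQ1 that overlaps some of its exon bases (3.98% of them lie in other gene models), had 361, 226 and 0 counts in LNCAP, PC3 and DU145.

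In the KCNH family, KCNH2 (ENSG00000055118, chromosome 7, 150944961 to 150978315), the gene of the HERG channel that repolarises heart muscle, stood at 10.2 CPM in LNCAP, 0 in PC3 and 4.59 in DU145. PC3 was at least 51.8-fold lower than LNCAP and at least 23.4-fold lower than DU145, while DU145 was 2.21-fold lower than LNCAP (1.67 to 2.97). KCNH8 was read in LNCAP at 11.7 CPM and was at 0.196 CPM in PC3 and 0 in DU145, 59.6-fold (20.1 to 292) and at least 61.1-fold lower. KCNH1, an ether-a-go-go gene often read in tumours, had 6.19 CPM in DU145, 0.0654 in PC3 and 0 in LNCAP. It was at least 32.3-fold higher in DU145 than in LNCAP, and 53.0% of its exon bases lie in other gene models. KCNH6 reached 1.02 CPM in LNCAP and was 7.82-fold (1.84 to 70.1) and 16.0-fold lower (2.49 to 673) in PC3 and DU145. KCNH3 stood between 1.57 and 1.91 CPM in all 3 lines and was not called. LNCAP thus had KCNH8 and KCNH2 above 5 CPM and DU145 had KCNH1, while no KCNH gene exceeded 1.57 CPM in PC3.

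Among the KCND genes, which carry fast transient current, KCND3 (ENSG00000171385, chromosome 1, 111770662 to 111989155) stood at 13.0 CPM in LNCAP, 0.131 in PC3 and 0.255 in DU145. It was 99.7-fold lower in PC3 (27.3 to 829) and 51.1-fold lower in DU145 (19.7 to 189). KCND2 had 1.47 and 1.83 CPM in LNCAP and PC3 and no counts in DU145. KCND1 stood at 3.01, 1.44 and 4.98 CPM and was not called in any pair.

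The KCNC genes also encode voltage-gated pores. In the order LNCAP, PC3, DU145, KCNC4 stood at 5.44, 4.78 and 10.3 CPM and was called in no pair. KCNC1 reached 1.09 CPM in LNCAP and was 5.54-fold (1.60 to 29.5) and 8.52-fold lower (2.02 to 76.0) in PC3 and DU145, from 3 and 2 counts. Over the 17 voltage-gated pore genes, 8 were called lower and 1 higher in PC3 than in LNCAP, and 8 lower and 3 higher in DU145 than in LNCAP. Over all tested genes 13.4% were called lower and 13.0% higher in the first pair, and 12.1% lower and 13.7% higher in the second. Among these 17 genes, KCNC1, KCND3, KCNH6, KCNH8 and KCNQ1 reached 1 CPM in LNCAP alone. Genes that pass the floor only where they are high had to differ, so these counts carry no further weight.

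Modifier subunits do not conduct alone and alter the voltage-gated pores they join. KCNS3 stood at 8.00 CPM in LNCAP, 0.0654 in PC3 and 13.6 in DU145, which put PC3 122-fold below LNCAP (21.5 to 4866) and 208-fold below DU145 (36.9 to 8245), both from 1 PC3 count. KCNG3 followed the same order, with 3.33, 0.327 and 3.70 CPM, and PC3 was 10.2-fold lower than LNCAP (4.09 to 32.6). KCNG1 was highest in PC3 at 22.8 CPM, against 8.96 in LNCAP and 9.83 in DU145, and was called in no pair. KCNF1 had 0 counts in LNCAP, 14 in PC3 (0.916 CPM) and 68 in DU145 (4.34 CPM). Against LNCAP, PC3 was at least 4.77-fold and DU145 at least 22.6-fold higher. PC3 thus had the highest KCNG1 and the lowest KCNS3 and KCNG3. KCNG2 reached 1.66 CPM in DU145 and was not called, and KCNG4, KCNS1, KCNS2, KCNV1 and KCNV2 were under 1 CPM throughout.

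Inward rectifiers, which stabilise the resting potential or couple it to receptors and metabolism, were represented by 16 genes, 6 of them at 1 CPM or more. KCNJ2 stood at 7.59 CPM in PC3, 0.192 in LNCAP and 0 in DU145, and was 39.5-fold higher in PC3 than in LNCAP from 3 LNCAP counts (13.2 to 195). KCNJ12, which encodes a related strong rectifier, had 5.23 CPM in PC3 and no counts elsewhere. It was at least 27.3-fold higher in PC3 than in either other line, and its near-identical copy KCNJ18 was listed at 0. KCNJ8, a pore of ATP-sensitive channels, had 1.05 CPM in PC3, 0 in LNCAP and 0.0638 in DU145, and 10.8% of its exon bases lie in other gene models. These 3 rectifier genes, which reached 1 CPM in PC3 alone, were called higher in PC3 than in both other lines. KCNJ3, a pore opened by G proteins, was instead read in LNCAP at 2.49 CPM and was 19.1-fold lower in PC3 (4.94 to 163) and at least 13.0-fold lower in DU145. In the order LNCAP, PC3, DU145, KCNJ11, the other pore of ATP-sensitive channels, stood at 6.40, 2.55 and 4.21 CPM and KCNJ14 at 4.54, 1.90 and 5.94 CPM, without a call. KCNJ14 shares 25.0% of its exon bases with other gene models, including GRWD1.

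ATP-sensitive channels need a sulfonylurea receptor beside the pore. ABCC8, one gene of this receptor and the next expressed gene beyond KCNJ11 at 3.2 kb, had 56 counts in LNCAP (3.58 CPM) and 0 in both other lines. PC3 was at least 18.3-fold and DU145 at least 18.7-fold lower. ABCC9, the other receptor gene, was under 0.5 CPM in each line.

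Auxiliary subunits were the group without a 4-fold call. All 8 of their genes at 1 CPM somewhere were so in all 3 libraries, and 0 of 8 were called in any pair, where 26.4%, 25.8% and 19.1% of all tested genes were called in the 3 pairs. KCNAB2, a cytoplasmic beta subunit gene, stood at 40.7 CPM in LNCAP, 39.8 in PC3 and 14.0 in DU145, 2.90-fold lower in DU145 than in LNCAP (2.49 to 3.40). KCNIP3, which encodes a calcium-binding partner of KCND pores, stood at 6.20, 6.54 and 7.53 CPM and KCNAB3 at 5.50, 3.66 and 3.77 CPM. KCNIP2, with 12.2% of its exon bases in other gene models, and KCNIP4 lay between 1.66 and 3.79 CPM and KCNAB1 between 1.28 and 1.83 CPM. Median sizes of the log2 ratio over the 8 genes were 0.62, 0.75 and 0.31 for PC3 against LNCAP, DU145 against LNCAP and PC3 against DU145. Over all tested genes they were 0.96, 0.94 and 0.78, and no difference between the groups was tested. The 5 KCNE genes, which modify KCNQ and KCNH pores, all stayed under 1 CPM.

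The class comparison asked which genes separated the castration-resistant lines from LNCAP, with PC3 and DU145 as 2 libraries. By edgeR's quasi-likelihood test with Benjamini-Hochberg adjustment, 0 of 46 channel genes and 0% of the 18025 tested genes passed 0.05. At an unadjusted p under 0.05, 8 channel genes were named by edgeR, beside 9.69% of all tested genes. Of these, KCNN2, KCND3 and KCNH8 were lower in both lines than in LNCAP, and KCNN4, KCNK15, KCNK6, KCNT2 and KCNF1 were higher. KCNN2 had the smallest values, with an unadjusted p of 0.0012 and an adjusted p of 0.27 by edgeR. DESeq2 called 6 channel genes (KCND3, KCNH8, KCNK15, KCNN2, KCNN4 and KCNQ3) at an adjusted p under 0.05, beside 7.25% of all tested genes, and gave no adjusted p for 6. KCNQ3, one of those it called, had no counts in PC3. Limma-voom called 0, beside 0% of all tested genes, with 4 channel genes at an unadjusted p under 0.05. The spread in this comparison is the difference between PC3 and DU145, with 1 residual degree of freedom.

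Partner and regulator genes outside the symbol rule were read from a list of 21, of which 15 reached 1 CPM. In PC3 against LNCAP 1 was called higher and 4 lower, in DU145 against LNCAP 1 higher and 2 lower, and in PC3 against DU145 1 higher and 1 lower. These are 33.3%, 20% and 13.3% of the 15 genes, beside 26.4%, 25.8% and 19.1% of all tested genes. CNTNAP2, which clusters KCNA channels on axons, was at 9.60 CPM in LNCAP, 0.0654 in PC3 and 4.79 in DU145, 147-fold lower in PC3 than in LNCAP from 1 PC3 count (25.9 to 5831). The calmodulin gene CALM2 was 4.12-fold higher in DU145 than in LNCAP, at 672 against 163 CPM. DPP6 and DPP10, whose products join KCND pores, were at or near 0 in all 3 lines.

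The list of pumps, cotransporters and other potassium pathways held 24 genes, of which 16 reached 1 CPM. In PC3 against LNCAP 2 were called higher and 3 lower, in DU145 against LNCAP 4 higher and 1 lower, and in PC3 against DU145 0 higher and 1 lower. The called shares of the 16 genes were 31.2%, 31.2% and 6.25%, where all tested genes had 26.4%, 25.8% and 19.1%. SLC12A4, a potassium-chloride cotransporter gene, stood at 5.50 CPM in LNCAP, 56.3 in PC3 and 62.7 in DU145, 10.2-fold and 11.4-fold higher. HCN2, a cation channel gene of pacemaker current, stood at 24.2, 1.24 and 3.38 CPM, 19.5-fold lower in PC3 (12.3 to 32.8) and 7.17-fold lower in DU145. HCN3 was 5.89-fold higher in DU145 than in LNCAP. ATP1B1, a subunit gene of the sodium pump that builds the potassium gradient, stood at 315 CPM in LNCAP and 135 in DU145, and was 4.64-fold lower in PC3 than in LNCAP at 67.8 CPM (4.34 to 4.97).

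Counts of the next protein-coding genes at 1 CPM or more on either side are given for some of these genes, chosen after their values were seen and in the order LNCAP, PC3, DU145. For KCNK5, SAYSD1 at 73.8 kb had 308, 201 and 293 counts and DAAM2 at 562.8 kb had 17, 8 and 16. In PC3, where KCNK5 had no counts, SAYSD1 stood at 13.1 CPM and DAAM2 at 0.523 CPM, under the 1 CPM floor. For KCNS3, SMC6 at 77.6 kb had 330, 980 and 1861 counts and RDH14 at 193.1 kb had 290, 418 and 345. For KCNH2, NOS3 at 12.7 kb had 562, 3 and 0 counts, and GIMAP2 at 251.3 kb had 54, 0 and 1. For KCNN2, YTHDC2 at 460.3 kb had 1826, 876 and 1223 counts, while TRIM36 at 628.3 kb had 427, 9 and 26. For KCNQ3, EFR3A at 107.2 kb had 959, 2148 and 2304 counts and LRRC6 at 90.9 kb had 23, 44 and 40. For KCNK15, WISP2 at 17.3 kb had 1, 2 and 405 counts and YWHAB at 133.4 kb had 5163, 8002 and 6531. For KCNN4, SMG9 at 11.5 kb had 240, 1221 and 1135 counts and LYPD5 at 14.7 kb had 0, 11 and 21. The neighbours of KCNH2 and KCNN2 were thus highest in LNCAP, though YTHDC2 stood at 117, 57.3 and 78.1 CPM and so was read in every line. The neighbours of KCNN4, KCNS3, KCNQ3 and KCNK15 were lowest in LNCAP, and those of KCNK5 were lowest in PC3. The neighbours of KCNK5, KCNS3 and KCNQ3 had counts in every line. For KCNH8, KCNJ3 and KCNQ5, whose neighbours are not listed above, both neighbours were highest in a different line from the channel gene. No link between a channel gene and its neighbours was tested.

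Promoter CpG content was compared as a description. The 33 channel genes at 1 CPM or more with a promoter in the table had a median of 25.0 CpG dinucleotides in the 250 bases before the start, with quartiles of 14.0 and 30.0. The 38 channel genes below 1 CPM had a median of 6.50, with quartiles of 4.00 and 19.8. For the other protein-coding genes these medians were 21.0 in 11069 genes at 1 CPM or more and 4.00 in 3755 genes below it. KCNMA1 held 46 CpG dinucleotides, whereas KCNN4 held 5 and KCNK6 held 11. KCNA3 and KCNA4 held 33 and 30 and had no counts in any line. Start sites used in these lines are not known from gene counts, so the annotated start nearest the 5′ end of each gene model was taken.

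**Figure D5:**
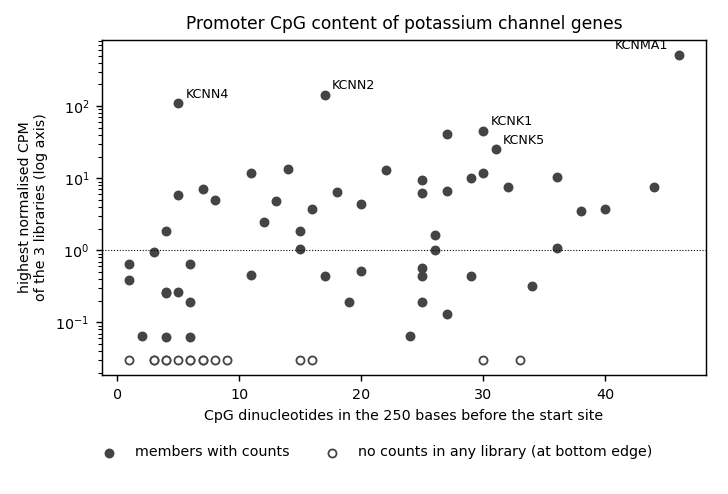
Number of CpG dinucleotides in the 250 bases before the annotated start against the highest normalised CPM of the 3 libraries on a log axis, 1 point per potassium channel gene with a promoter in the table (71 genes); open points at the bottom edge had no counts, and the dotted line marks 1 CPM. Genes above the line have a median of 25.0 CpG dinucleotides and genes below it 6.50, and both sets spread widely, with a lower quartile of 14.0 above the line and an upper quartile of 19.8 below it.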

How the data were processed

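RNA sequencing libraries of LNCAP, PC3 and DU145, 1 each, were analysed, grouped by the cell line label. The authors deposited raw read counts per gene and FPKM per gene for each library. Deposited FPKM values were the counts over the listed gene length and over a constant of each library, which was 1.0345, 1.0051 and 0.988 times its count total. Per the submitters' processing notes, the tools were Cuffdiff 2.1.1, Cufflinks 2.1.1, TopHat2 2.0.9 and Bowtie2 2.0.6, with no role stated. Which program counted reads, with which strand setting and on which build, is not given in the sources used here. Coordinates of the 58735 genes matched GENCODE release 29 (GRCh38). Without known strand, reads of overlapping genes cannot be told apart.

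TMM factors were 1.016, 0.998 and 0.987 (edgeR 4.0.16, R 4.3.3). Tested genes were the 18025 that reached 1 CPM in any library. Ratios of scaled counts carry exact 95% counting intervals (conditional binomial, Clopper-Pearson; Python 3.11.15, scipy 1.17.1). A call needed a log2 ratio of 2 or more in size (0.5 counts added) and an interval without the value 1. Folds against 0 counts put 3 counts in their place and are bounds. Where both libraries had 3 counts or fewer, no fold is given. Intervals and bounds cover counting error only and compare libraries, not classes. The class comparison used edgeR's quasi-likelihood test, with DESeq2 1.42.0 and limma-voom 3.58.1 as alternatives. The other alternatives were other scalings, filters and added counts, and FPKM with 1 added. The procedures were tested on simulated data with counting error only and the same shifts in PC3 and DU145. Such data could not test how the class comparison handles differences between these lines. Promoters are from RefSeq (GRCh38.p14), and the set of promoters used here held 71 of the 95 genes.

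Named genes were the 30 that reached 5 CPM in any library and, per pair, the 10 each way with the counting interval farthest from 1. From the other lists these were 4 per pair. Other genes named, and the neighbours and overlaps, were chosen after values were seen. Members and lists were chosen with earlier results of these data known. Some genes that the rule names, also left out of the plots of single genes, are not reported here.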

Additional observations from a re-analysis of the deposited data

Results flagged for a closer look

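KCNK5, the acid-sensitive two-pore channel gene, moved in opposite directions in the castration-resistant lines. Its log2 ratio was -7.48 in PC3 against LNCAP and 2.14 in DU145 against LNCAP, with 90 LNCAP counts, 0 PC3 counts and 398 DU145 counts. With 1 library per line, the difference between these effects was not tested.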

How the results depend on the processing

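The named genes gave 117 ratios (39 genes in 3 pairs). No alternative reversed the direction of a called ratio that could be recomputed, and the direction of uncalled ratios was not compared. With DESeq2 size factors, library totals or no filter, all 117 kept their side of the call. With 5 added counts 9 called ratios fell under 4-fold and 108 did not change side, and with 1 added to FPKM 52 fell under it. Adding 1 to FPKM left 3, 4 and 5 channel genes called in PC3 against LNCAP, DU145 against LNCAP and PC3 against DU145, where the shares of all tested genes were 9.18%, 8.61% and 5.53%. Of the 46 tested channel genes, 20 were under 1 FPKM in every library. A 5 CPM filter left 30 tested channel genes, of which 14 were called in PC3 against LNCAP (6 higher, 8 lower), where 22.0% of all genes passing it were. In DU145 against LNCAP 14 were called (9 higher, 5 lower), beside 21.1% of all genes passing it. In PC3 against DU145 16 were called (7 higher, 9 lower), beside 15.3%. Under that filter, which tests fewer genes, 3 of 13 partner genes were called in PC3 against LNCAP, and 3, 3 and 0 of 13 pump and cotransporter genes in PC3 against LNCAP, DU145 against LNCAP and PC3 against DU145, beside 22.0%, 21.1% and 15.3% of all genes passing it. DESeq2 called 6 channel genes in the class comparison and edgeR 0; the cause was not tested. Without either castration-resistant library no residual degree of freedom is left, so the class test could not be repeated. No paired analysis was possible because each line has 1 library and the labels give no replicate numbers. Leaving out genes that share over 10% of their exon bases with another gene model, an alternative chosen after seeing the data, kept each count of calls within 1.5 times the value given. At this depth, genes under 1 CPM rest on 15 counts or fewer.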
